A study of Mus musculus with 12 samples.

Results

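The 9 genes Cs, Idh1, Idh2, Idh3a, Ogdh, Dlst, Suclg2, Fh1 and Mdh2 are grouped as enzymes or enzyme subunits of the tricarboxylic acid (TCA) cycle. Among them, Idh1 encodes a form that lies outside the mitochondrial cycle proper. The 9 genes were taken by name from a count table of 56350 genes. All 9 were found once and passed the filter on low counts. Their mRNA was followed in cells of the murine line MPC2, a conditionally immortalized mesenchymal stem cell clone. MSCs were undifferentiated cells kept at 33 °C. Osteocytes (Ocy) were the same cells after 3 weeks at 37 °C in media with beta-glycerophosphate and ascorbic acid. Both were given either vehicle (DMSO) or 50 µM FG-4592 (Roxadustat) for 48 h, and each of the 4 conditions had 3 libraries. FG-4592 inhibits the prolyl hydroxylases that mark hypoxia-inducible factor (HIF) for destruction, and so mimics hypoxia. Differentiation, temperature and media changed together and cannot be told apart. All libraries came from a single clone, and no label says that the 3 libraries of a condition were separate cultures, so that p-values measure the spread between these libraries, which may be technical.

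The TCA cycle runs in the mitochondrial matrix, where it oxidizes acetyl-CoA, feeds electrons to the respiratory chain and supplies carbon skeletons for synthesis. Citrate synthase makes citrate, isocitrate dehydrogenases make 2-oxoglutarate, the 2-oxoglutarate dehydrogenase complex makes succinyl-CoA, and succinate, fumarate, malate and oxaloacetate follow. The cycle touches oxygen sensing directly, because the HIF prolyl hydroxylases use 2-oxoglutarate as a cosubstrate and are inhibited by succinate and fumarate, and FG-4592 competes with 2-oxoglutarate at these enzymes. In hypoxia, HIF is known to raise pyruvate dehydrogenase kinase 1, which limits the entry of pyruvate into the cycle.

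Citrate synthase is encoded by Cs (ENSMUSG00000005683.8; chromosome 10 of mm10, 128337734 to 128362479, plus strand). The isocitrate dehydrogenases are represented by 3 genes. Idh1 (ENSMUSG00000025950.16; chromosome 1, 65158616 to 65186500, minus strand) encodes the NADP-dependent enzyme of the cytosol and peroxisomes, which lies outside the mitochondrial cycle proper. Idh2 (ENSMUSG00000030541.16; chromosome 7, 80094846 to 80115392, minus strand) encodes its mitochondrial NADP-dependent relative. Idh3a (ENSMUSG00000032279.11; chromosome 9, 54586334 to 54604661, plus strand) encodes the catalytic subunit of the NAD-dependent enzyme. Ogdh (ENSMUSG00000020456.17; chromosome 11, 6291633 to 6356642, plus strand) and Dlst (ENSMUSG00000004789.10; chromosome 12, 85110833 to 85134845, plus strand) encode the E1 and E2 components of the 2-oxoglutarate dehydrogenase complex. Suclg2 (ENSMUSG00000061838.7; chromosome 6, 95473009 to 95718800, minus strand) encodes the GTP-forming beta subunit of succinyl-CoA ligase. Fumarate hydratase is encoded by Fh1 (ENSMUSG00000026526.14; chromosome 1, 175600374 to 175625635, minus strand), and mitochondrial malate dehydrogenase by Mdh2 (ENSMUSG00000019179.10; chromosome 5, 135778480 to 135790398, plus strand). None of the 9 shares exonic bases with another annotated gene. Only Suclg2 had a near-identical relative in a search of transcripts, the processed pseudogene Gm15163, with 98.9% identity over 1302 bases and at most 56 counts in any library.

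Promoter sequences were at hand for 8 of the 9 genes, all but Idh3a, in RefSeq windows of 250 bases before to 50 bases after a start site (GRCm38.p6). The core letters of the HIF response element, ACGTG or GCGTG, were searched on both strands. They occurred in at least 1 window of 5 of the 8 genes (Idh1, Idh2, Ogdh, Fh1 and Mdh2) and in no window of Cs, Dlst or Suclg2. Of all 32851 windows of this length, 43.8% held either motif, 19.6% ACGTG and 32.4% GCGTG, so that such a match is common. The letters CACGTG hold ACGTG on both strands. Ogdh has 6 overlapping or neighbouring windows, which gives it more chances of a match. The windows printed are those of Idh2 and Suclg2, whose mRNA had the lowest estimates with FG-4592 in MSCs, and the first listed of the 6 of Ogdh, which did not pass the test with FG-4592 in either cell type. Capitals mark ACGTG or GCGTG on either strand, and in Ogdh a match to each lies side by side in 1 run of capitals.
Idh2 (chr7:80115301-80115600, minus strand): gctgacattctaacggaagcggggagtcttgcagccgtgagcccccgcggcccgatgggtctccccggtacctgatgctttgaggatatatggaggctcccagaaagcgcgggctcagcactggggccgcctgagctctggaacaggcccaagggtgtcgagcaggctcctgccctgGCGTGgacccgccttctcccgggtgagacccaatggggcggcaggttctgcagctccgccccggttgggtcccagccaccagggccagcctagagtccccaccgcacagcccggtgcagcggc
Suclg2 (chr6:95718797-95719096, minus strand): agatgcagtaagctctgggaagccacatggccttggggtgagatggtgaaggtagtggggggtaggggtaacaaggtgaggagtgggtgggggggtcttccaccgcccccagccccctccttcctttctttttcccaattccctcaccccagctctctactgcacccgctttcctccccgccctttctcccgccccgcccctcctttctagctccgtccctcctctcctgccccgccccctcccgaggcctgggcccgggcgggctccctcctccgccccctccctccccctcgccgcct
Ogdh (chr11:6291347-6291646, plus strand): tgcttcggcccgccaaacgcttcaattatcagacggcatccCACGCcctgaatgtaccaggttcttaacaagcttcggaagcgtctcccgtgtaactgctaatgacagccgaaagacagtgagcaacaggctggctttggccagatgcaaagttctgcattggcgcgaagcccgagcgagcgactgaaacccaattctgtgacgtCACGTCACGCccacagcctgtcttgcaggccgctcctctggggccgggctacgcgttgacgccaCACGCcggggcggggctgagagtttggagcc
The Idh2 window held 1 match, 73 bases before the start site on the strand of the gene. The Ogdh window printed held 4 matches, all on the opposite strand, and the 5 not printed held 2 to 4 each, in 3 of them on both strands. The Suclg2 window, rich in C and G at 67.7%, held none.

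Libraries held between 52829185 and 68108470 counts, and the 9 genes together took between 0.114% and 0.172% of a library. The fewest counts for any of them were 2428 (Suclg2) and the most 32565 (Idh1), so that none was limited by depth. Levels of 1 gene across libraries are given as CPM, the count scaled to a common library size with TMM factors, and levels between genes per kilobase of exonic length (RPKM). Tests used edgeR's quasi-likelihood fit of all 12 libraries, on the 16484 genes with over 10 counts in 3 or more of them. A gene is said to have risen or fallen when its false discovery rate (FDR, Benjamini-Hochberg over all genes tested) was under 0.05. The study's cutoffs also ask for an absolute log2 fold change above 1. An exact permutation test of 3 libraries against 3 cannot give a two-sided p under 0.1, and was not used. Of 6 known HIF targets used to check the treatment, 4 rose in MSCs and 6 in osteocytes. Egln3 (FDR 0.661) and Car9 (FDR 0.746) did not pass in MSCs, where they had at most 7 counts in a library. The glucose transporter Slc2a1 rose by a log2 fold change of 3.36 in MSCs (FDR 7.59e-16) and 3.5 in osteocytes (FDR 5.19e-16).

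The osteocyte libraries carried some defining markers of that cell and lacked others. With vehicle, Phex was at 57.6 ± 6.32 CPM (SD, n = 3) against 0.977 ± 0.116 in MSCs, and Dmp1 at 11.2 ± 2.30 against 1.19 ± 0.622. Sost was at 0 counts in all 12 libraries and Mepe at 0 in all osteocyte libraries. Pdpn had at most 1 count, but is annotated a second time on a patch scaffold, which leaves its level uncertain. None of these 3 was tested. Of the 9 markers tested in vehicle, 5 rose from MSCs to osteocytes, where 26% of all genes did, and 2 fell, where 24.9% did. Besides Phex and Dmp1, Bglap (log2 fold change 4.28), Runx2 (0.56) and Sp7 (0.45) rose, while Ibsp (−0.74) and Alpl (−0.33) fell. Of 12 markers of other cell types, the 4 adipocyte markers Adipoq, Plin1, Cidec and Fabp4 all rose with differentiation. Their summed level was 11 to 12.5 CPM in MSCs and 1566 to 2181 CPM in osteocytes with vehicle, and with FG-4592 it was 6.36 to 7.61 CPM in MSCs and 1813 to 2183 CPM in osteocytes. The cartilage collagen Col2a1 also rose, from 0.771 to 62.7 CPM on average, as did the endothelial Pecam1, at 0.0879 and 0.308 CPM (log2 fold change 1.77, FDR 0.0328), while Acan, Myog, Ckm, Cdh5 and Ptprc had at most 9 counts in any library. The libraries are bulk samples, so that fewer cells of a type and less RNA per cell cannot be told apart.

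Per kilobase, Idh1 was the highest of the 9 genes in every condition. In vehicle-treated MSCs it was at 185.5 ± 1.69 RPKM (SD, n = 3), followed by Cs at 44.9 ± 1.18, Mdh2 at 40.2 ± 0.762 and Idh2 at 39.3 ± 0.312. Ogdh (32.5 ± 0.228), Dlst (23.7 ± 1.08), Fh1 (21.2 ± 0.511), Suclg2 (17.7 ± 0.675) and Idh3a (9.55 ± 0.599) came next in that order of RPKM. Of neighbours in this order, the libraries of Mdh2 and Idh2 overlapped and those of all other pairs did not.

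The order changed in osteocytes mainly through Ogdh. With vehicle it moved from the fifth to the second place, at 56.0 ± 1.31 RPKM, ahead of Mdh2 (47.1 ± 5.08) and Cs (38.9 ± 1.07). Idh3a (14.7 ± 0.419 RPKM) and Suclg2 (13.9 ± 1.19 RPKM) overlapped at the low end, as they did with FG-4592, at 10.1 ± 0.368 and 9.50 ± 0.799. In FG-4592-treated MSCs, Idh2 (22.2 ± 1.48 RPKM) had dropped to the level of Dlst (21.7 ± 0.420), with overlapping libraries. The RPKM of the 9 genes summed to 414.5 ± 4.32 with vehicle and 355.3 ± 9.16 with FG-4592 in MSCs. In osteocytes the sums were 403 ± 15.2 and 298.7 ± 8.82. Idh1 alone took on average 44.8% and 47.8% of these sums in MSCs, and 39.6% and 36.4% in osteocytes. The highest gene stood 19.4 times above the lowest with vehicle and 18.0 times with the drug in MSCs, and 11.5 and 11.4 times in osteocytes.

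**Figure D1:**
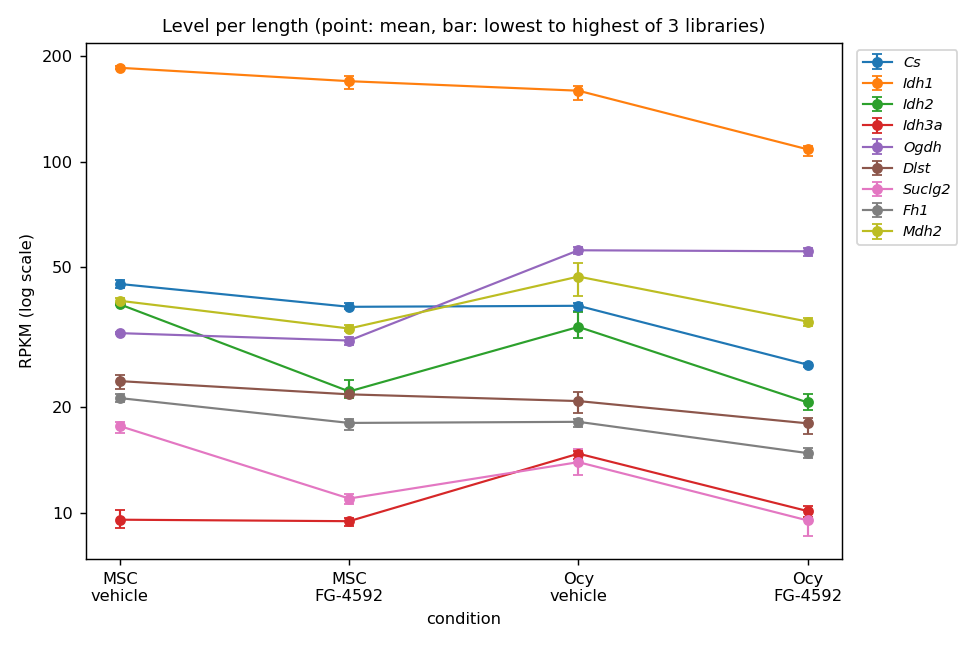
Level of each of the 9 genes in RPKM (log axis) by condition. Points are means, bars run from the lowest to the highest of 3 libraries, and the lines join the means of 1 gene. Idh1 stays on top at 185.5 to 108.6 RPKM, Ogdh (32.5 RPKM in vehicle-treated MSCs) crosses Cs and Mdh2 to reach 56.0 RPKM in vehicle-treated osteocytes, and Idh3a and Suclg2 lie lowest.

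In MSCs, FG-4592 lowered the mRNA of 5 of the 9 enzymes, and none rose. Idh2 and Suclg2 fell most, to 0.565 and 0.622 of their vehicle level, and Cs, Fh1 and Mdh2 fell by 13.9% to 16.7%. Of all genes tested in MSCs, 20.4% fell and 17.6% rose. All 9 estimates were negative, so that none rose at an unadjusted p under 0.05 either, and none was past both cutoffs (FDR under 0.05 and an absolute log2 fold change above 1), as 9.29% of all genes were. The median log2 fold change of the 9 was −0.22, against −0.05 over all genes tested.

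Idh2 was at 101, 103 and 101 CPM in the 3 vehicle-treated MSC libraries and at 55.1, 55.2 and 61.8 CPM with FG-4592. The highest treated library lay far below the lowest vehicle library, and the log2 fold change was −0.82 (SE 0.0669, FDR 5.90e-08). Suclg2 stood at 83.7, 83.1 and 78.0 CPM with vehicle and 50.9, 48.9 and 52.4 CPM with FG-4592. Its conditions were likewise far apart, with a log2 fold change of −0.69 (SE 0.0699, FDR 8.61e-07).

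At the entry of the cycle, Cs was at 266, 260.2 and 252 CPM with vehicle and 228, 221 and 221 CPM with FG-4592. Treated libraries were lower throughout, by a log2 fold change of −0.22 (SE 0.0427, FDR 0.000722). Both enzymes of the last steps fell by a similar amount, Fh1 by a log2 fold change of −0.24 (SE 0.0495, FDR 0.00123) and Mdh2 by −0.26 (SE 0.0626, FDR 0.00317). Fh1 moved from 70.3 to 73.7 CPM in the vehicle libraries to 58.5 to 62.8 CPM in the treated ones, and Mdh2 from 141 to 146 CPM to 117 to 122 CPM.

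The other 4 enzymes did not pass the test in MSCs. Idh3a gave 47.8, 45.8 and 51.7 CPM with vehicle and 48.4, 46.5 and 48.9 CPM with FG-4592, and was the one gene of the 9 whose libraries overlapped. Its log2 fold change was −0.01 with a 95% interval from −0.13 to 0.10. Idh1 (−0.13, interval −0.23 to −0.02, FDR 0.0543) and Dlst (−0.13, interval −0.25 to −0.003, FDR 0.1) lay close to the threshold, and Ogdh was at −0.07 (interval −0.16 to 0.02, FDR 0.223). For these 3 the treated libraries were all below the vehicle libraries, as happened in either direction for 50.5% of all genes tested. With each library left out in turn, Idh1 ranged from −0.15 to −0.09, passing only without the third FG-4592-treated MSC library (FDR 0.0470). Dlst ranged from −0.14 to −0.07, the latter without the second vehicle-treated MSC library (FDR 0.474), and Ogdh from −0.09 to −0.04. Idh1, Dlst and Ogdh all passed when libraries were scaled by their total alone, and their FDRs reached 0.251, 0.474 and 0.671 under other alternatives.

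**Figure D2:**
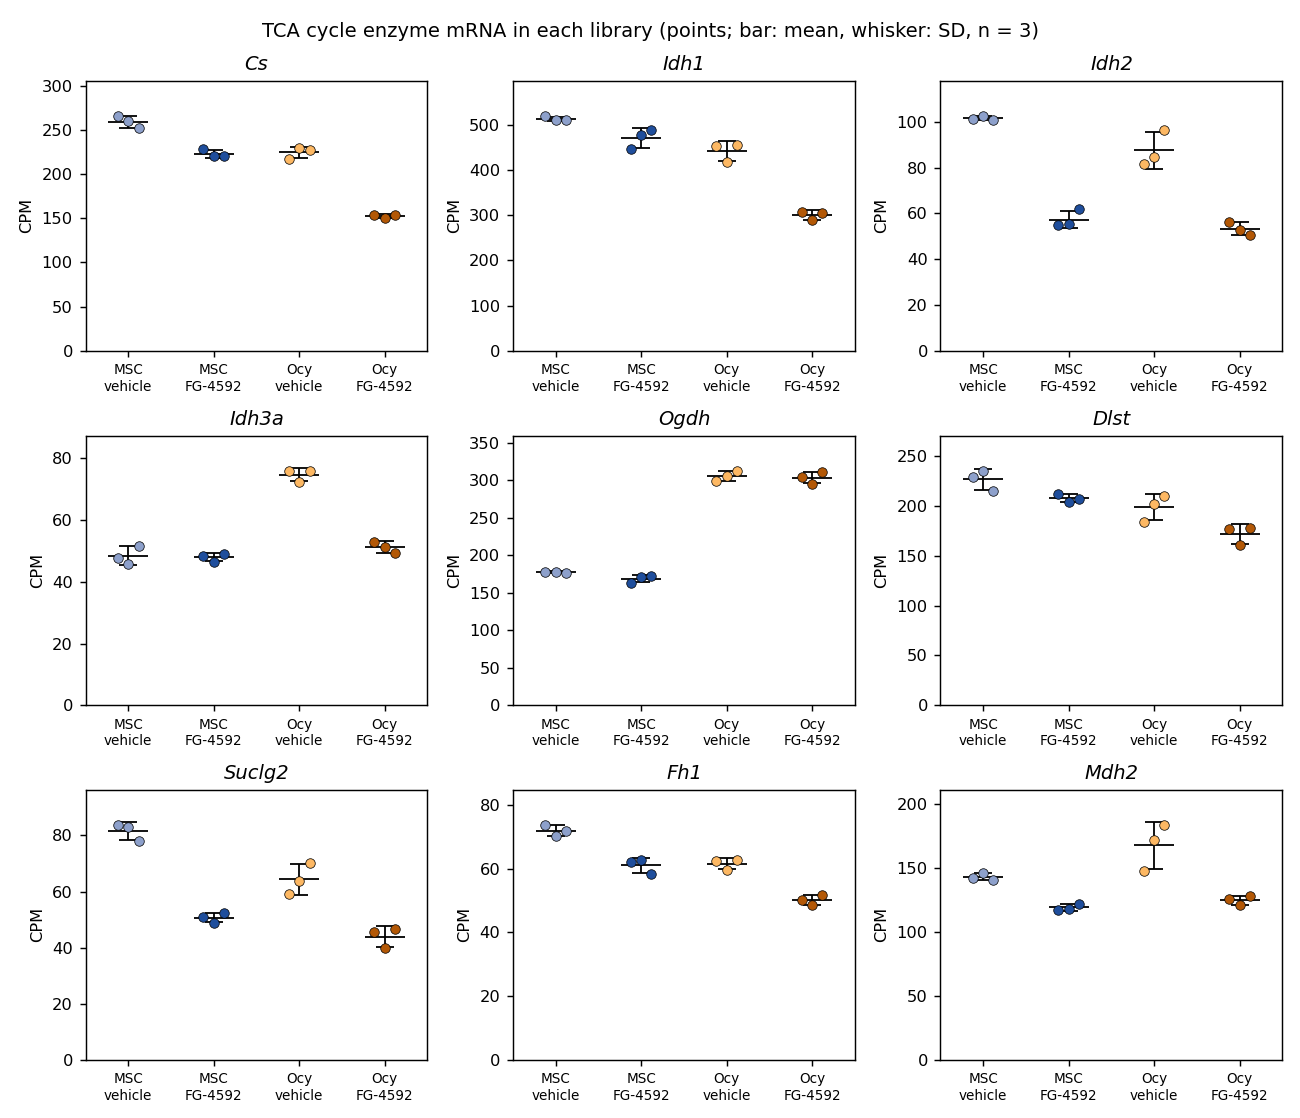
CPM of each gene (vertical axes from 0) in each of the 12 libraries, by condition. Points are libraries, the long bar is the mean and the whiskers are the SD over 3 libraries. Idh2 and Suclg2 drop with FG-4592 in both cell types, Idh3a drops in osteocytes, from 72.3 or more to 53 CPM or less, but overlaps in MSCs, and Ogdh rises with differentiation to 295 CPM or more whatever the treatment.

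In osteocytes, FG-4592 lowered the mRNA of 8 of the 9 enzymes, Ogdh being the exception. Cs, Idh1, Idh3a and Suclg2 each fell to between 0.680 and 0.686 of their vehicle level, Idh2 to 0.609, and Mdh2, Fh1 and Dlst to between 0.744 and 0.864. In this comparison 22% of all genes tested fell and 21.9% rose. No estimate was positive, and none was past both cutoffs, as 10.5% of all genes were. The median log2 fold change of the 9 was −0.54, against 0.002 over all genes tested.

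Among the isocitrate dehydrogenases, Idh2 was at 81.6, 84.5 and 96.7 CPM in the vehicle-treated osteocyte libraries and at 56.4, 52.9 and 50.7 CPM with FG-4592 (log2 fold change −0.72, SE 0.067, FDR 2.46e-07). Idh3a gave 76.0, 72.3 and 75.9 CPM with vehicle and 53, 51.3 and 49.3 CPM with FG-4592 (−0.54, SE 0.0556, FDR 6.75e-07). Idh1 was at 454, 417 and 456 CPM with vehicle and at 308, 289 and 306 CPM with FG-4592 (−0.55, SE 0.0498, FDR 1.51e-07). For all 3 the treated libraries lay below every vehicle library. Idh3a is only 1 subunit of the NAD-dependent enzyme. Of its other subunits, Idh3g fell in osteocytes (−0.22, FDR 0.00625) and Idh3b did not pass (−0.09, FDR 0.275).

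Cs was at 218, 229 and 227 CPM with vehicle and 154, 150.1 and 154 CPM with FG-4592 in osteocytes, with little spread in either condition (log2 fold change −0.56, SE 0.0429, FDR 2.44e-08). The 2 components of the 2-oxoglutarate dehydrogenase complex had unequal estimates, and the difference between the 2 genes was not tested. Dlst was lower with FG-4592, at 160.4 to 178 against 184 to 210.4 CPM (−0.21, SE 0.0576, FDR 0.00696). Ogdh was at 298, 306 and 313 CPM with vehicle and 304, 295 and 311 CPM with FG-4592, and was the only one of the 9 whose osteocyte libraries overlapped. For the other 8 they did not, nor did they for 51.8% of all genes tested. The log2 fold change of Ogdh was −0.01 with a 95% interval from −0.10 to 0.08.

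Later in the cycle, Suclg2 fell in osteocytes from 59.2 to 70.1 CPM to 39.7 to 46.6 CPM (log2 fold change −0.55, SE 0.0702, FDR 7.77e-06). Mdh2, the last enzyme, was at 148, 172 and 184 CPM with vehicle, the widest relative spread of the 9 genes in any condition, and at 126, 121 and 128 CPM with FG-4592 (−0.43, SE 0.0626, FDR 3.49e-05). Fh1 fell by a log2 fold change of −0.30 (SE 0.0498, FDR 0.000133).

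Other measures moved with the treatment in the same libraries. The summed level of 6 proliferation genes (Mki67, Top2a, Ccnb1, Cdk1, Mcm2 and Pcna) went from 842 to 863 CPM with vehicle to 576 to 673 CPM with the drug in MSCs, and from 456 to 553 CPM to 198 to 277 CPM in osteocytes. Of these 6, 5 fell with FG-4592 in MSCs and 6 in osteocytes, where 20.4% and 22% of all genes tested fell. Transcripts of the mitochondrial genome took 2.56% to 2.84% of counts with vehicle and 2.30% to 2.50% with the drug in MSCs. In osteocytes these shares were 3.30% to 3.74% and 2.15% to 2.18%. Of 9 osteocyte and osteoblast markers tested, 6 fell and none rose in MSCs, and 7 fell and 1 rose in osteocytes. In osteocytes Phex went from 57.6 to 2.83 CPM (log2 fold change −4.35, FDR 7.98e-11). Dmp1 went there from 11.2 to 2.06 CPM (−2.44, FDR 2.12e-05). The 1 that rose was Fgf23 (5.81, FDR 6.68e-05), to 1.61 CPM. Of all genes tested, 17.6% rose in MSCs and 21.9% in osteocytes. Of the 7 tested markers of other cell types, 1 rose and 1 fell in MSCs, and 3 rose in osteocytes. The 3 were Col2a1, from 62.7 to 294 CPM (log2 fold change 2.23, FDR 7.05e-10), and the adipocyte markers Fabp4, from 104 to 238 CPM (1.19, FDR 6.83e-07), and Cidec, from 40.9 to 63.1 CPM (0.62, FDR 0.000915). Adipoq, which dominates the adipocyte sum, did not pass in osteocytes (−0.10, FDR 0.450) and fell in MSCs (−1.44, FDR 2.50e-07). The part of these measures in the lower level of the cycle enzymes was not tested.

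**Figure D3:**
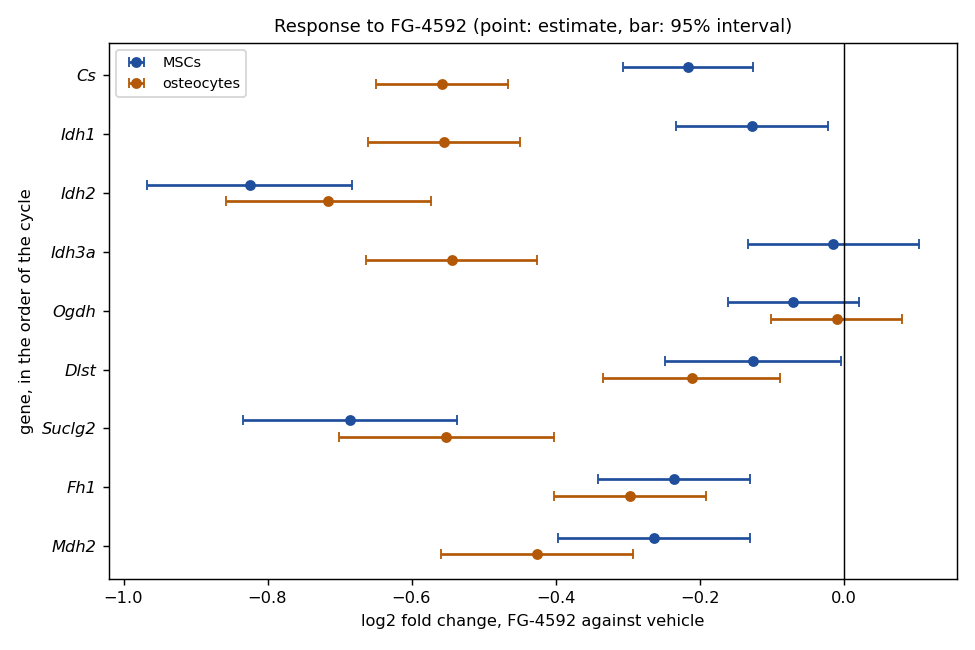
Log2 fold change with FG-4592 against vehicle for the 9 genes in the order of the cycle, in MSCs and in osteocytes, each from 3 libraries against 3. Points are edgeR estimates, bars are 95% intervals, and the vertical line marks no change. The intervals of Cs, Idh1 and Idh3a lie apart between the cell types, whereas Ogdh crosses 0 in both, at −0.07 and −0.01.

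The responses of the 2 cell types were compared directly, as the difference between the log2 fold change in osteocytes and that in MSCs. For 3 of the 9 enzymes the response was lower in osteocytes, and for none higher. Over all genes tested, 11% had a lower and 13.3% a higher response in osteocytes, and 5.01% were past both cutoffs, which none of the 9 was. Idh3a differed most, by −0.53 (SE 0.0789, FDR 0.000134). It had risen with differentiation in vehicle and with FG-4592 was at 51.2 ± 1.87 CPM (SD, n = 3) in osteocytes, near the 48.4 ± 3.04 CPM of vehicle-treated MSCs. The difference was −0.43 for Idh1 (SE 0.0702, FDR 0.000327) and −0.34 for Cs (SE 0.0604, FDR 0.000615).

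For the other 6 no difference between the cell types was detected, which does not show that they responded alike. The difference was 0.11 for Idh2 (95% interval −0.09 to 0.31), 0.13 for Suclg2 (−0.08 to 0.34) and 0.06 for Ogdh (−0.07 to 0.19). It was −0.09 for Dlst (−0.26 to 0.09), −0.06 for Fh1 (−0.21 to 0.09) and −0.16 for Mdh2 (−0.35 to 0.02). No positive difference passed an unadjusted p under 0.05. These 6 estimates moved with single libraries: with each left out in turn, Idh2 ranged from 0.01 to 0.19, Suclg2 from 0.03 to 0.20, Ogdh from −0.005 to 0.08, Dlst from −0.19 to −0.04, Fh1 from −0.13 to −0.04 and Mdh2 from −0.29 to −0.09. For Idh2, Suclg2, Ogdh, Dlst and Mdh2, one end of the range came without the first vehicle-treated osteocyte library and the other without the third. Mdh2 rested on the first vehicle-treated osteocyte library, its lowest at 148 CPM: without it the difference was −0.29 (FDR 0.00285).

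With differentiation alone, in vehicle, all 9 genes changed, in both directions. Ogdh rose 1.72-fold, Idh3a 1.54-fold and Mdh2 1.17-fold, while Cs, Idh1, Idh2, Dlst, Suclg2 and Fh1 fell by 12.3% to 21.1%. Of all genes tested 26% rose and 24.9% fell, and in 56.9% the libraries of the 2 cell types did not overlap, as in all 9 enzymes. None of the 9 was past both cutoffs, as 15.9% of all genes were. Their median log2 fold change was −0.21, against −0.006 over all genes, and −0.13 without the first vehicle-treated osteocyte library.

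Ogdh was at 178, 178 and 176 CPM in vehicle-treated MSCs and at 298, 306 and 313 CPM in vehicle-treated osteocytes (log2 fold change 0.78, SE 0.043, FDR 2.72e-10). Idh3a went from 45.8 to 51.7 CPM in MSCs to 72.3 to 76.0 CPM in osteocytes (0.63, SE 0.0558, FDR 1.08e-07), and Mdh2 from 141 to 146 CPM to 148 to 184 CPM (0.23, SE 0.0625, FDR 0.00593). Suclg2 had the largest decrease, by a log2 fold change of −0.34 (SE 0.0695, FDR 0.00062), and Cs (−0.21), Idh1 (−0.22) and Fh1 (−0.22) fell at an FDR of 0.00161 or less. The decreases of Idh2 (−0.21, FDR 0.0131) and Dlst (−0.19, FDR 0.0118) did not pass without certain single libraries. Leaving out any 1 vehicle-treated MSC library gave Idh2 an estimate of −0.18, −0.17 or −0.18 (FDR 0.0639 to 0.0869), close to the full estimate in size but with the FDR above 0.05. Without the first vehicle-treated osteocyte library Idh2 was at −0.13 (FDR 0.144), and without the second at −0.16 (FDR 0.103). Dlst was at −0.10 (FDR 0.156) without that first osteocyte library, and at −0.15 (FDR 0.0799) and −0.12 (FDR 0.137) without the first and the second MSC library. Mdh2, whose vehicle-treated osteocyte libraries spread most, kept its rise at 0.35 (FDR 1.30e-05) without the first of them and 0.16 (FDR 0.0356) without the third. The summed adipocyte markers, the proliferation genes and the mitochondrial transcripts given above also differed between these cell types, and their part in these differences was not tested.

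Under FG-4592, osteocytes differed from MSCs in 6 of the 9 enzymes. Ogdh was again higher in osteocytes, by a log2 fold change of 0.85 (SE 0.043, FDR 7.81e-11), at 295 to 311 CPM against 164 to 173 CPM. The 5 lower in osteocytes were Idh1 (−0.65, SE 0.0498, FDR 1.45e-08), Cs (−0.55, SE 0.0429, FDR 1.71e-08), Fh1 (−0.29), Dlst (−0.27) and Suclg2 (−0.21, FDR 0.0194). Suclg2 was at −0.18 (FDR 0.0673), close to its full estimate, without the third FG-4592-treated MSC library, and at −0.13 (FDR 0.130) without the second FG-4592-treated osteocyte library. Idh3a (0.10, interval −0.02 to 0.21), Mdh2 (0.07, interval −0.07 to 0.20) and Idh2 (−0.10, interval −0.25 to 0.04) did not pass. In this comparison 30.5% of all genes tested rose and 25.3% fell, 18.3% were past both cutoffs, and 64.1% had libraries without overlap, against 7 of the 9. The comparisons within treatments and those between treatments use the same 12 libraries and are not independent of each other.

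**Figure D4:**
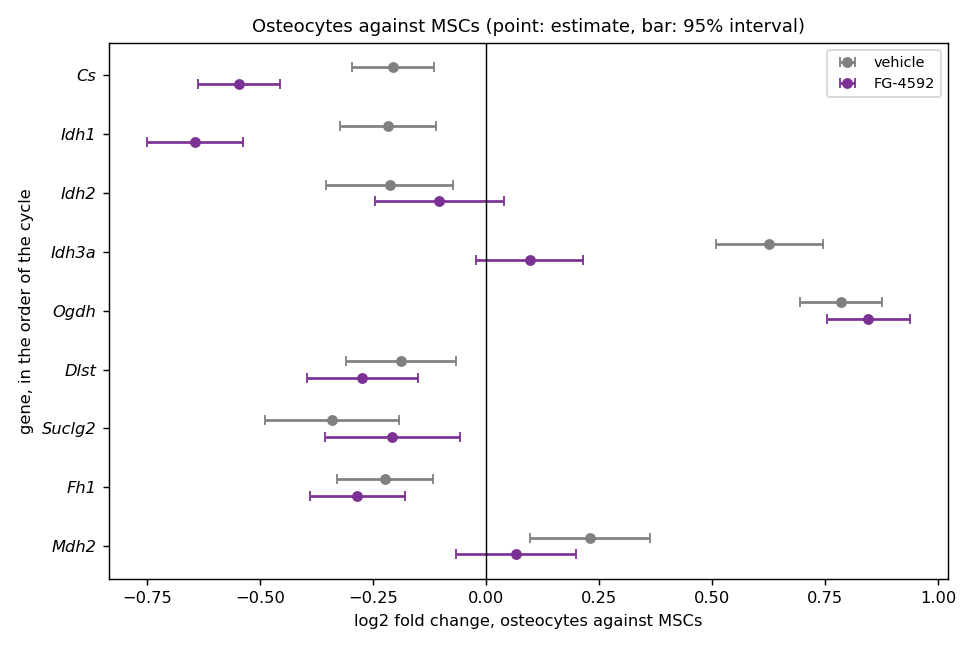
Log2 fold change of osteocytes against MSCs for the 9 genes, with vehicle and with FG-4592, each from 3 libraries against 3. Points are edgeR estimates, bars are 95% intervals, and the vertical line marks equal levels. Ogdh is 0.78 to 0.85 higher in osteocytes under both treatments, while Idh3a is 0.63 higher with vehicle and 0.10 with FG-4592.

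Because the genes moved unequally, the make-up of the group changed. Ogdh took 7.84% ± 0.034 (SD, n = 3) of the summed RPKM of the 9 genes in vehicle-treated MSCs, 8.71% ± 0.061 with FG-4592. In osteocytes it took 13.9% ± 0.305 with vehicle and 18.6% ± 0.247 with the drug, with no overlap between conditions. Idh2 took 9.47% ± 0.095 and 6.24% ± 0.291 in MSCs and 8.39% ± 0.458 and 6.90% ± 0.388 in osteocytes. The RPKM of Ogdh relative to Dlst, its partner in the same complex, was 1.37 ± 0.054 in vehicle-treated MSCs and 1.43 ± 0.064 with FG-4592, whereas in osteocytes it was 2.7 ± 0.121 and 3.10 ± 0.110. Relative to Idh2, whose mitochondrial product is the substrate of Ogdh, Ogdh was at 0.828 ± 0.005 with vehicle and 1.40 ± 0.071 with FG-4592 in MSCs. The same ratio was 1.66 ± 0.111 and 2.7 ± 0.182 in osteocytes.

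The ratio of mitochondrial Idh2 to cytosolic Idh1 was 0.209 to 0.215 in vehicle-treated MSCs and 0.124 to 0.136 with FG-4592, and did not overlap. In osteocytes it was 0.192 to 0.227 with vehicle and 0.177 to 0.196 with FG-4592, which overlapped. The RPKM of Mdh2 relative to Cs, the pair that makes and uses oxaloacetate, was 0.834 to 0.911 over the 6 MSC libraries and 1.10 to 1.35 over the 6 osteocyte libraries. These ratios are descriptions of RPKM and were not tested.

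Of the 10 remaining subunits of the mitochondrial cycle, 5 fell with FG-4592 in MSCs and none rose, and 7 fell in osteocytes and none rose. Over all genes tested, 20.4% fell and 17.6% rose in MSCs, and 22% fell and 21.9% rose in osteocytes. Their median log2 fold change was −0.17 in MSCs and −0.32 in osteocytes. The highest estimates were those of Sdhd in MSCs (0.18, FDR 0.0546) and Sdhc in osteocytes (0.02, FDR 0.791), both membrane anchors of succinate dehydrogenase. Sdhb, the iron-sulfur subunit of succinate dehydrogenase, fell by a log2 fold change of −0.31 (FDR 0.000297) in MSCs and −0.41 (FDR 1.74e-05) in osteocytes. Idh3g, a regulatory subunit of the NAD-dependent isocitrate dehydrogenase, had the lowest value in MSCs (−0.33, FDR 0.000344). Sucla2, the ATP-forming counterpart of Suclg2, had the lowest value in osteocytes (−0.54, FDR 1.78e-07), and its response there was lower than in MSCs by −0.36 (FDR 0.00134). With differentiation in vehicle, Dld, the E3 component shared by the 2-oxoglutarate and pyruvate dehydrogenase complexes, rose by 0.30 (FDR 6.09e-05) and 6 of the 10 fell, where 26% of all genes rose and 24.9% fell. Under FG-4592, 6 of the 10 were lower in osteocytes and none higher, against 25.3% and 30.5% of all genes.

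Of 14 genes that govern the entry of pyruvate, 5 rose and 3 fell with FG-4592 in MSCs, and 5 rose and 7 fell in osteocytes, where 17.6% of all genes rose and 20.4% fell in MSCs, and 21.9% rose and 22% fell in osteocytes. The 3 of 14 that fell in MSCs are near that share. Pdk1, whose product switches off pyruvate dehydrogenase, went in MSCs from 18.6 ± 0.724 to 543 ± 8.46 CPM (SD, n = 3). In osteocytes it went from 23.5 ± 2.45 to 379 ± 12.6 CPM. Its log2 fold change was 4.87 (FDR 6.89e-17) in MSCs and 4.01 (FDR 2.65e-16) in osteocytes. Pdk3 and Pdk4, of the same family, rose in both cell types. Pdk3 rose by 1.33 (FDR 4.00e-08) in MSCs and 0.90 (FDR 2.79e-06) in osteocytes. Pdk4 rose by 0.66 (FDR 1.68e-08) in MSCs and 1.64 (FDR 1.98e-13) in osteocytes. Pdk2 rose in osteocytes (0.59, FDR 2.29e-07) and did not pass in MSCs (−0.11, FDR 0.151). Of the opposing phosphatases, Pdp1 fell in MSCs (−0.73, FDR 3.95e-08) and was at −0.13 (FDR 0.0793) in osteocytes. Pdp2 fell in osteocytes (−1.47, FDR 2.56e-07) and was at −0.31 (FDR 0.0839) in MSCs. Their regulatory subunit Pdpr rose in both, by 0.28 (FDR 0.000542) and 0.42 (FDR 6.14e-06). With differentiation in vehicle 9 of the 14 rose and 2 fell, led by Pcx, which makes oxaloacetate from pyruvate (1.38, FDR 6.49e-09). Over all genes, 26% rose and 24.9% fell. Under FG-4592, 5 of the 14 were higher and 5 lower in osteocytes than in MSCs, near the 30.5% and 25.3% of all genes.

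Of 20 genes of anaplerosis, shuttles and cytosolic partners, 7 rose and 6 fell with FG-4592 in MSCs, and 5 rose and 9 fell in osteocytes. The 5 of 20 that rose in osteocytes are near the 21.9% of all genes tested that rose, and the 9 that fell stand beside 22%. In MSCs the shares over all genes were 17.6% risen and 20.4% fallen. Of 3 malic enzymes, which turn malate into pyruvate, Me1 and Me2 rose in both cell types, and Me3 did not pass in either (0.08, FDR 0.750 in MSCs and −0.06, FDR 0.813 in osteocytes). The mitochondrial Me2 went up by a log2 fold change of 1.82 (FDR 1.98e-11) in MSCs and 0.56 (FDR 1.56e-05) in osteocytes, and the cytosolic Me1 by 0.65 (FDR 1.72e-07) and 0.87 (FDR 3.81e-09). Ogdhl, a paralog of Ogdh, fell by −1.73 (FDR 1.40e-06) in MSCs and −1.54 (FDR 8.45e-07) in osteocytes, where Ogdh itself did not pass. Like Ogdh it was higher in osteocytes in vehicle, by 1.90 (FDR 7.00e-08), from a mean of 3.87 to 14.5 CPM. With differentiation in vehicle 8 of the 20 rose and 6 fell, and under FG-4592 3 were higher and 9 lower in osteocytes. Of all genes, 26% rose and 24.9% fell in vehicle, to which the 6 of 20 is near, and 30.5% were higher and 25.3% lower under FG-4592. Acly, which splits exported citrate, was lower in osteocytes by −1.02 (FDR 4.24e-11) in vehicle and −1.10 (FDR 1.21e-11) under FG-4592.

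Genes of lipoate and cofactor attachment were few, and include the succinate dehydrogenase assembly factors Sdhaf1, Sdhaf2, Sdhaf3 and Sdhaf4. Of 7, 4 fell with FG-4592 in MSCs, where 20.4% of all genes did, and 1 in osteocytes, where 22% did. The 4 in MSCs were Lias, the lipoate synthase, Sdhaf2, Sdhaf3 and Sdhaf4. Lipt1 (FDR 0.589) and Lipt2 (FDR 0.687) did not pass there. The 1 in osteocytes was Lias (−0.20, FDR 0.0140). With differentiation 3 of the 7 fell in vehicle, where 24.9% of all genes did. Under FG-4592, where 30.5% of all genes were higher in osteocytes, 1 of the 7, Sdhaf3, an assembly factor of succinate dehydrogenase, was higher (0.36, FDR 0.0461), a call lost without the second FG-4592-treated osteocyte library (0.23, FDR 0.209). Of 19 genes used as a gauge of mitochondrial mass and biogenesis, 18 were tested, and Ppargc1a, at no more than 4 counts, was not. With FG-4592, 5 of the 18 rose and 2 fell in MSCs, and 2 rose and 5 fell in osteocytes, with medians of 0.12 and 0.009. Over all genes tested, 17.6% rose and 20.4% fell in MSCs, and 21.9% rose and 22% fell in osteocytes, so that 5 of 18 falling in osteocytes is near that share. The outer-membrane channel Vdac1 rose by 1.6 (FDR 2.74e-12) in MSCs and 1.14 (FDR 1.24e-10) in osteocytes, whereas the chaperonin Hspd1 fell by −0.64 (FDR 5.16e-07) in osteocytes. In vehicle 5 of the 18 rose and 3 fell with differentiation, and under FG-4592 3 were higher and 7 lower in osteocytes. The shares of all genes were 26% and 24.9% in vehicle, to which 5 of 18 is near, and 30.5% and 25.3% under FG-4592. The 9 cycle enzymes are read against these lists by counts only, and no difference between lists was tested.

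**Figure D5:**
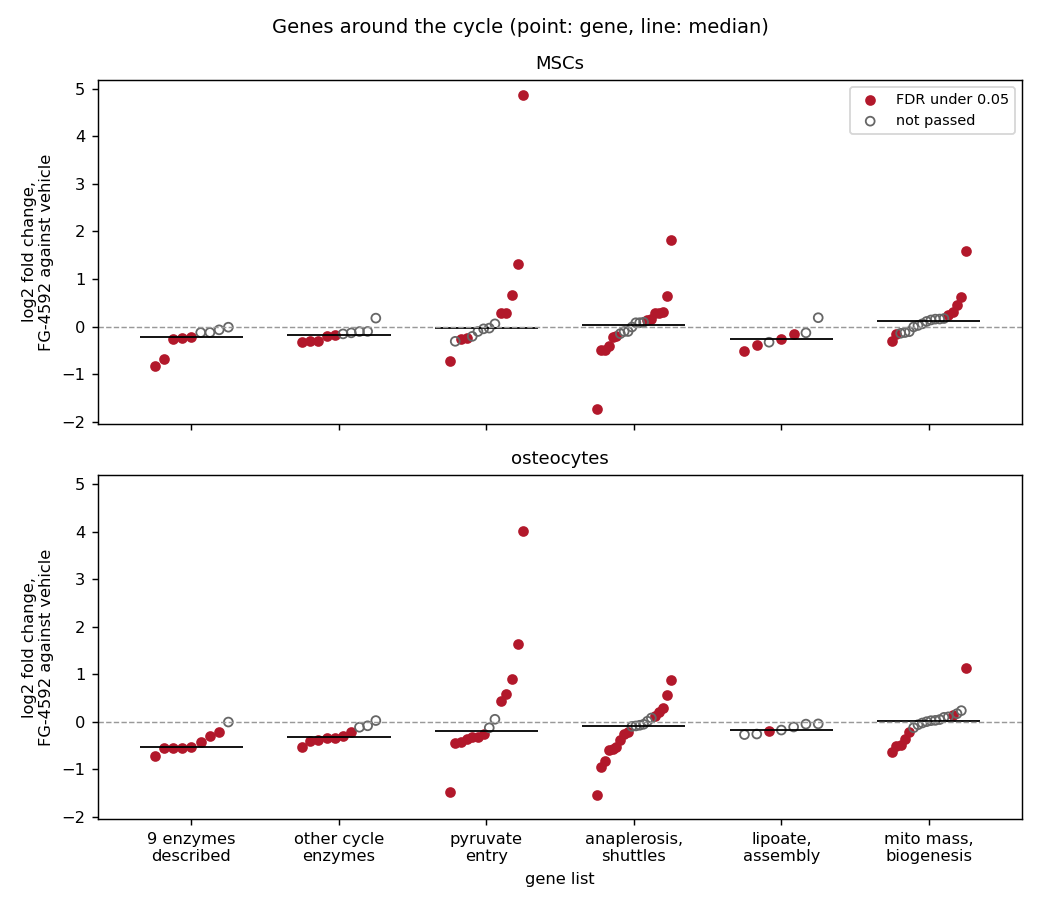
Log2 fold change with FG-4592 against vehicle for the 9 enzymes and for 5 lists of genes around the cycle, in MSCs (top) and osteocytes (bottom). Each point is a gene, filled where its FDR was under 0.05, and the black line is the median of the list. The 9 enzymes sit at or below 0, with medians of −0.22 and −0.54, while the pyruvate entry list reaches 4.87 and 4.01 through Pdk1.

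Over the 12 libraries, several of the 9 genes shared a pattern, given as Pearson's r of log2 CPM. Cs and Idh1 had an r of 0.97, Idh2 and Suclg2 one of 0.96, and Cs and Fh1 one of 0.96. For Ogdh, r was −0.64 with Cs (Spearman's rho −0.28), −0.70 with Idh1 (rho −0.45) and −0.70 with Dlst (rho −0.44). It was −0.14 with Idh2 (rho 0.01) and −0.34 with Suclg2 (rho −0.05). Idh3a had an r of 0.67 with Ogdh and 0.76 with Mdh2 but 0.05 with Cs. These values rest on 4 conditions of 3 libraries each, which are not 12 independent points.

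The genes whose pattern was most like that of each enzyme were sought among 9450 protein-coding genes with at least 10 CPM in their highest condition. Ogdh was most like Lipe, the hormone-sensitive lipase of fat cells (r = 0.998), which had means of 1.81 to 3.00 CPM in the MSC conditions and 156 to 188 CPM in the osteocyte conditions. Fbln5, an elastic fibre protein, came next (r = 0.997). The adipocyte marker sum given above had the same division between cell types, and its part in the pattern of Ogdh was not tested. Idh2 was most like Ddx58, the RNA sensor RIG-I (r = 0.98), and Nnmt, nicotinamide N-methyltransferase (r = 0.98). Suclg2 was most like Gatb, which serves mitochondrial translation (r = 0.98), and Ebp, an enzyme of sterol synthesis (r = 0.98). Cs was closest to Arpc1b (r = 0.99), an actin-nucleating subunit, and to Phgdh (r = 0.99), the first enzyme of serine synthesis. Idh1 was closest to Lrrc59 (r = 0.99) and Raly (r = 0.99), and Idh3a to Naa60 (r = 0.98) and Mphosph8 (r = 0.98). Dlst was closest to Psmb7, a proteasome subunit (r = 0.985), and Snx12 (r = 0.985). Fh1 was closest to Slc7a6 (r = 0.99), an amino acid transporter, and Atp5f1, a subunit of ATP synthase (r = 0.98). Mdh2 was closest to Mief2 (r = 0.97) and Foxred1 (r = 0.97). These values of r are descriptions with no test.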

How the data were processed

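Raw counts per gene from 12 mRNA libraries, 3 per condition, were used as the authors deposited them, without normalization. Per the labels and the study's methods, 100-base paired reads were mapped to mm10 with STAR 2.7.2a and counted on Gencode M22 genes with featureCounts (Subread 1.6.2). Uniquely mapped pairs with a mapping quality of at least 10 were kept, a pair was counted for each gene it overlapped, and no strand was set, so that overlapping genes can share reads. Totals and TMM factors (0.947 to 1.06) were checked per library. The 16484 genes with more than 10 counts in 3 or more libraries were fitted in edgeR 4.0.16 (R 4.3.3) with 1 coefficient per condition and tested by quasi-likelihood. SEs and 95% intervals were derived from the F statistic. DESeq2 1.42.0, limma 3.58.1 voom, other scaling and filters, and each library left out were alternatives. RPKM used the exonic lengths in the deposited table. The fit was tested on simulated data. Of 67 genes changed by an absolute log2 fold of 0.5, it recovered 49 for FG-4592 against vehicle in osteocytes. For the difference of the responses it recovered 29 of 67. At a log2 fold of 1, 60 and 58 of 67 were recovered, so that small effects can be missed. Similar transcripts came from blastn 2.17.0 (at least 95% identity over 100 bases, Gencode M21), and figures from Python 3.11.15.

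The 9 genes, the lists and the tests were chosen with earlier results of these data known. Of each list, up to 2 genes with the largest rise and 2 with the largest fall at FDR under 0.05 were named where a result turned on them, with all 9 enzymes, Slc2a1 and Pdk1, and the 2 genes of most similar pattern. Pearson's r used log2 CPM with a prior count of 2. Marker genes, and other list genes named outside that rule (Pdpr, Me3, Sdhd and Sdhc with FG-4592, and several of those whose responses differed between the cell types), were chosen after their values were seen.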

Additional observations from a re-analysis of the deposited data

Results flagged for a closer look

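In the test of the difference between the FG-4592 response of osteocytes and that of MSCs (edgeR's interaction contrast, log2 scale, osteocytes minus MSCs), 3 of the 9 cycle enzymes and 28 of the 69 genes tested in the 5 lists around them differed. Over all genes tested, 11% had a lower and 13.3% a higher response in osteocytes. No test for an outlying library was run on the groups of 3.

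Of the 9 enzymes, Cs differed by −0.34 (SE 0.0604, FDR 0.000615), Idh1 by −0.43 (SE 0.0702, FDR 0.000327) and Idh3a by −0.53 (SE 0.0789, FDR 0.000134). Of the other subunits of the cycle, Sucla2 differed by −0.36 (FDR 0.00134), Sdhd by −0.30 (FDR 0.0368) and Dld by −0.23 (FDR 0.0172), each with a lower response in osteocytes.

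At the entry of pyruvate, the response was lower in osteocytes for Pdk1 by −0.85 (FDR 3.81e-06), though its level rose in both cell types, for Pdk3 by −0.43 (FDR 0.0436) and for Pdp2 by −1.16 (FDR 0.00036). It was also lower for the pyruvate dehydrogenase subunits Pdha1 by −0.28 (FDR 0.0023), Pdhb by −0.37 (FDR 0.000995) and Dlat by −0.23 (FDR 0.0345). It was higher in osteocytes for Pdk4 by 0.97 (FDR 6.35e-08), for Pdk2 by 0.69 (FDR 8.58e-06) and for Pdp1 by 0.60 (FDR 5.43e-05).

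Among shuttles and partners, Me2 differed by −1.26 (FDR 4.47e-07), with a rise of 1.82 in MSCs and of 0.56 in osteocytes. The aspartate-glutamate carriers Slc25a12 and Slc25a13 differed by −0.75 (FDR 2.13e-07) and −0.54 (FDR 0.0444). Slc25a12 rose in MSCs (0.16) and fell in osteocytes (−0.59). Pck2 differed by 0.48 (FDR 0.00105) and D2hgdh by 0.29 (FDR 0.0482). The response was lower in osteocytes for the transaminases Got1 by −0.56 (FDR 0.00193) and Got2 by −0.24 (FDR 0.0449), and for the cytosolic Aco1 by −0.47 (FDR 0.000151) and Mdh1 by −0.32 (FDR 0.00724).

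Of the gauges of mitochondrial mass, Timm23 differed by −0.52 (FDR 0.00172), Hspd1 by −0.50 (FDR 0.000733), Hspa9 by −0.49 (FDR 0.000115), Vdac1 by −0.46 (FDR 0.00054), Vdac3 by −0.37 (FDR 0.00476), Tomm20 by −0.25 (FDR 0.0472) and Vdac2 by −0.21 (FDR 0.0325).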

How the results depend on the processing

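The count of the 9 enzymes that fell with FG-4592 in MSCs was 5, and 8 when libraries were scaled by their total alone, with Idh1, Dlst and Ogdh added. That scaling moved the median of all genes from −0.05 to −0.13. The other counts of enzymes that rose or fell stayed within 1.5 times their value under each alternative run.

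Estimates near 0 changed sign. In MSCs the FG-4592 response of Idh3a was 0.0266 with genes that share exonic bases removed and 0.0162 with only the 6 libraries compared, and −0.0298 to 0.0689 with each library left out. With each library left out, Ogdh ranged from −0.0452 to 0.0148 in osteocytes, and its difference between the cell types from −0.0048 to 0.0765. No estimate that passed the test changed sign.

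No sign of pairing by replicate number was seen. Deviations of same-numbered libraries had correlations from −0.13 to 0.05 over 18 pairs, and those of differently numbered libraries from −0.10 to 0.09 over 36. Such values cannot show whether libraries were handled as pairs. The replicate block changed the call of none of the 45 gene-by-comparison results, and under it 5 enzymes fell in MSCs and 8 in osteocytes. Removing genes that share exonic bases, which refits fewer genes, lost Idh2 (−0.16, FDR 0.0558) and Dlst (−0.14, FDR 0.0701) in vehicle-treated osteocytes against MSCs. DESeq2 (FDR 0.0496), limma voom (FDR 0.0348) and upper-quartile factors (FDR 0.0233) gained Idh1 in MSCs, and upper-quartile factors also gained Dlst (−0.16, FDR 0.0365), which made 7 of 9. Depth limited none of the 9.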
